A study of Mus musculus with 6 samples.

Results

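The genes described are those of the cytosolic ribosome, the particle that translates every nuclear-encoded messenger RNA. They were taken by name: a row belonged when its gene symbol was Rpl or Rps followed by a number with at most 1 of the letters a, x, y or l, or was Rplp0, Rplp1, Rplp2 or Rpsa. The rule used no measured value and left out rows named as pseudogenes. It found 80 of 22558 gene rows, 48 of the large subunit with its stalk and 32 of the small subunit. Rpl34 had no row of its own and stood only in a joint entry with its pseudogene Rpl34-ps1. Fau, Gnb2l1, Rpl22l1, Rpl7l1 and Rpl36al also encode ribosomal proteins, their paralogs or a ribosome-bound factor, and their symbols do not match the rule.

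Messenger RNA was sequenced from 6 cultures of mouse pluripotent cells at passage 25, 1 library per culture. A pair of embryonic stem cell (ESC) cultures on a 129Sv background comprised a knockout, in which Cre recombinase had been used against the gene of the histone variant H2A.X, and the Flox/Flox ESC, which carry that gene flanked by recombination sites. The 4 induced pluripotent stem cell (iPSC) lines, on a 129Sv/C57 mixed background, were derived from fibroblasts of the peritoneum (PF) or of the tail tip (TTF), with 1 line labelled 4N+ and 1 labelled 4N- from each source. The labels do not spell out 4N; in stem cell work it commonly refers to tetraploid complementation, in which cells are asked to build an embryo inside a tetraploid host. All cultures grew with LIF on feeder cells and were split onto gelatin just before RNA was taken, to remove the feeders. No condition has a second library from the same source, so none of the 3 comparisons has a replicate check, and each line may differ from its partner in ways other than its label. In RNA from whole cultures, fewer cells of a type and less RNA per cell cannot be told apart.

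The cytosolic ribosome has a small subunit, which reads the messenger RNA, and a large subunit, which joins amino acids. Each ribosomal protein is needed in nearly equal number, and their messenger RNAs belong to the TOP class, which begin with a C followed by a run of pyrimidines and whose translation is controlled by mTOR through Larp1. Mammalian genomes hold very many processed pseudogenes of these genes, intronless copies made by reverse transcription of the messenger RNA. Because such copies can be nearly identical to the parent coding sequence, short reads from the parent can also align elsewhere.

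Pyrimidine runs can be read in the promoters that RefSeq gives for these genes (GRCm38.p6, not the mm9 build of the deposited coordinates). A run was counted where a C was followed by at least 7 further C or T, on the gene's own strand, within 50 bases before to 50 bases after the annotated start. Of 71 promoters found for 60 of the 80 genes, 55 (77.5%) held such a run. Among all 32851 promoters the share was 28.8%. Such a match is a description of the letters, not evidence of a regulatory site. It may lie away from the first base of the messenger RNA, so the share does not count TOP starts. Counted from an annotated start, the runs printed below begin at -3 (Rps10), -43 (Rps19), -7 (Rpl35) and 26 (Rpl4) bases. The windows of 30 bases below, with the run in capitals, belong to genes that the comparisons turn on: Rps10 at chr17:27635226-27635255 (minus strand), Rps19 at chr7:24884626-24884655 (plus strand), Rpl35 at chr2:39005115-39005144 (minus strand) and Rpl4 at chr9:64173406-64173435 (plus strand), the most abundant member.
Rps10: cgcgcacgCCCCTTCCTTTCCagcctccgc
Rps19: cgtcgttCCCTTTCCCCTggctggcagcgc
Rpl35: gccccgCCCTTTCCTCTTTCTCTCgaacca
Rpl4: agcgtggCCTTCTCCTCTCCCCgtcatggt

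The closeness of parent and copy is shown by stretches of 60 bases from the coding sequences of 3 members and their pseudogenes (GENCODE M21, GRCm38), with capitals at the bases that differ. Rps10 and Rps10-ps2, of chromosomes 17 and 16, differ at 5 of 495 coding bases, of which 4 fall in coding bases 379 to 438. Rpl3 and Rpl3-ps1, of chromosomes 15 and X, differ at 2 of 1209 coding bases, with 1 in the first 60. Rpl23a and Gm10132, of chromosomes 11 and 14, differ at 1 of 468 coding bases, within bases 187 to 246.
Rps10: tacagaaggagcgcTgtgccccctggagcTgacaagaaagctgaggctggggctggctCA
Rps10-ps2: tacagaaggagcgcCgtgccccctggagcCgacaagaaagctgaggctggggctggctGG
Rpl3: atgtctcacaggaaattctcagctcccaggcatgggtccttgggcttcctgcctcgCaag
Rpl3-ps1: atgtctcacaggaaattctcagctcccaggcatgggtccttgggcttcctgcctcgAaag
Rpl23a: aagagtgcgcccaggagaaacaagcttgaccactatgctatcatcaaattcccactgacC
Gm10132: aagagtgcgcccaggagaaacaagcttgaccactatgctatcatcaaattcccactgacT

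Functional paralogs are farther apart. Rpl39l, a copy of the X-linked Rpl39 that is known mainly from male germ cells, differs from it at 23 of 153 coding bases (84.97% identical) and shares no stretch of 50 bases with any other annotated gene. The first 60 coding bases of both are given because Rpl39l had one of the widest ranges of level, with capitals at the 4 differing bases.
Rpl39: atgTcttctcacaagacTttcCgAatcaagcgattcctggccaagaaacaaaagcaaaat
Rpl39l: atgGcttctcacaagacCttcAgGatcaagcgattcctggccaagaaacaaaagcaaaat

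The targeted gene H2afx was lower in the library labelled knockout, at 6.18 FPKM (fragments scaled to transcript length and to library depth) against 34.9 FPKM in Flox/Flox cells, and at 65.3 to 75.2 FPKM in the iPSC lines. The effective depth, recovered from the step between the lowest values of intronless receptor genes, was such that 1 FPKM over 1000 effective bases stood for 36.6 fragments in the knockout ESC, the shallowest library, and 54.5 fragments in the 4N+ TTF line, the deepest. All 5 pluripotency markers were at or above 1 FPKM in every library, but none was higher in the knockout than in Flox/Flox cells (median log2 ratio -0.51, summed 379 against 593 FPKM, Sox2 48.5 against 142 FPKM). Of 8 fibroblast or feeder markers, 1 or 2 reached 1 FPKM in each library except the 4N+ PF line, where 5 did (summed 18.8 FPKM against 1.86 to 6.40 FPKM elsewhere). The 10 trophoblast markers summed to 990 FPKM in the knockout, against 42.4 FPKM in its Flox/Flox partner and 26.8 to 72.5 FPKM in the iPSC lines. Krt18, Krt8 and Lgals3 made up most of that sum, at 659, 188 and 97.2 FPKM in the knockout. Eomes (1.79 and 2.65 FPKM) and Ascl2 (1.65 and 1.81 FPKM) were lower in the knockout than in the Flox/Flox cells, and Elf5 was near 0 in both. The part of any of these marker differences in the ribosomal protein values was not tested.

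Together the 80 genes held 4.11% of the summed FPKM of the knockout ESC and 3.62% of that of the Flox/Flox ESC. They held 4.65% in the 4N- and 4.51% in the 4N+ PF line, and 4.54% in the 4N- and 4.23% in the 4N+ TTF line. In each pair the culture named first had the higher share. With small RNA genes left out of the sum the shares were 4.799% and 4.69% in the ESC, 5.95% and 5.51% in the PF pair, and 6.13% and 5.76% in the TTF pair. The tables were scaled separately by the authors, and levels set side by side across pairs carry that limit here and below.

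Although the ribosome needs its proteins in nearly equal number, the deposited levels of their genes ran from means over the 6 libraries of under 1 FPKM, such as 0.645 FPKM for Rpl28, to 1580 FPKM for Rpl4. Rpl4, a large-subunit protein of the exit tunnel wall, stood at 1173 and 1618 FPKM in the knockout and Flox/Flox ESC, 1649 and 1772 FPKM in the 4N- and 4N+ lines from PF, and 1685 and 1585 FPKM in the 4N- and 4N+ TTF lines. Other abundant members were Rpl8 (mean 1047 FPKM), Rpl32 (887 FPKM) and Rps3 (728 FPKM), of which Rps3 lies at the entry of the messenger RNA channel and is also known as a DNA repair nuclease. Of the 80 genes, 25 were at or above 100 FPKM in every library and 65 at or above 1 FPKM in every library. The remaining 15 fell below 1 FPKM somewhere.

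Those 15 low genes included Rpl28, Rps23, Rpl36a, Rpl23a, Rps13, Rps29, Rpl10a, Rps28, Rpl3l, Rpl24, Rps16, Rps27 and Rpl26. Apart from Rpl3l, a paralog known from striated muscle, they encode standard parts of the ribosome. Rps23, which lies at the decoding centre, was listed at 0.438 and 0.571 FPKM in the knockout and Flox/Flox ESC, 0.770 and 0.395 FPKM in the 4N- and 4N+ lines from PF, and 0.373 and 1.40 FPKM in the 4N- and 4N+ TTF lines. Rpl23a, a large-subunit protein at the tunnel exit, ranged from 0.431 FPKM (knockout ESC) to 1.33 FPKM (4N- TTF line). Both are low throughout.

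**Figure D1:**
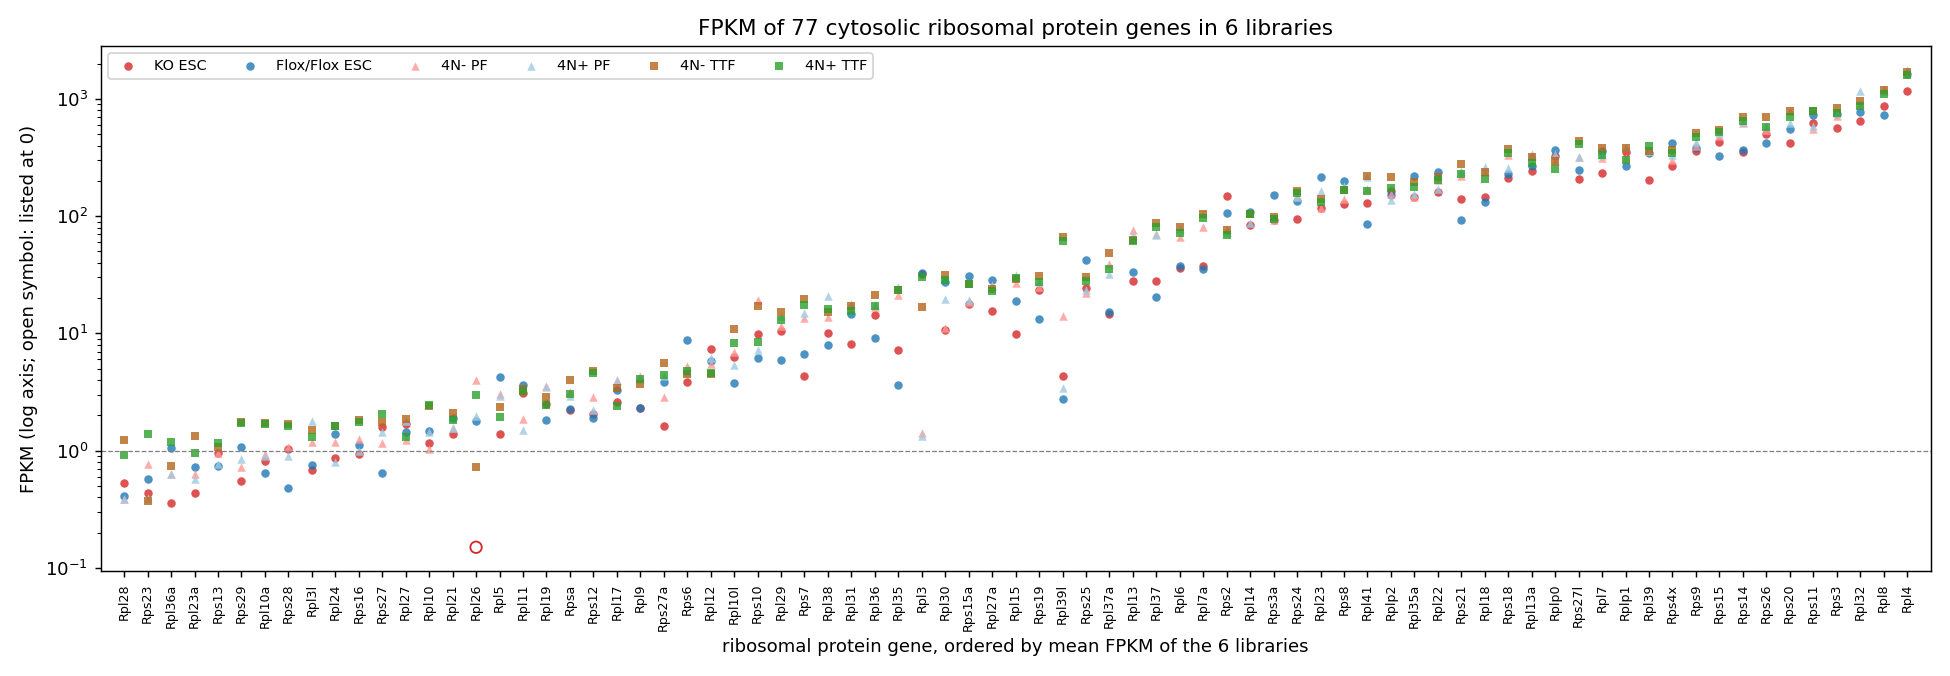
FPKM (log axis) of 77 of the 80 cytosolic ribosomal protein genes in each of the 6 libraries, ordered along the x axis by mean FPKM; 1 symbol is 1 library, the open symbol is a value listed at 0 and the dashed line marks 1 FPKM. Mean levels run from 0.645 FPKM (Rpl28) to 1580 FPKM (Rpl4), and the 6 libraries of most genes lie close together against that range, with Rpl3 and Rpl39l the most spread of those above 1 FPKM in every library.

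Low levels went with coding sequence that is repeated elsewhere in the genome. For each member the coding sequence was divided into overlapping windows of 50 bases, and a window was counted as shared where it occurred letter for letter in an annotated transcript of another gene. Over the 80 genes the median share was 90.3%. A pseudogene was among the sharing genes for 77 members, every window was shared for 29, and none for 3, Rpl39l and Rpl3l among them. The 29 genes with a mean below 10 FPKM had a median of 100% of windows shared, and 23 of them had every window shared. The 22 genes between 10 and 100 FPKM had a median of 92.4%. The 29 genes at 100 FPKM or more had a median of 60.4%, with 1 gene wholly shared (Rpl41, whose coding sequence is very short) and 12 below 50%.

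Across the 80 genes, Spearman's rho of mean FPKM with the share of windows was -0.73, and Pearson's r with log2 mean FPKM was -0.57. These describe genes within the same libraries, and genes are not independent replicates. Exceptions ran both ways. Rpl39l, Rpl10l and Rpl3l shared 0%, 12.5% and 0% and had means of 25.6, 6.93 and 1.21 FPKM; all 3 are paralogs known mainly from other tissues. Rps20 stood at 645 FPKM with 85.7% of windows shared. The sources used here do not say how reads aligning to several places were handled, and whether that treatment set the low levels was not tested.

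**Figure D2:**
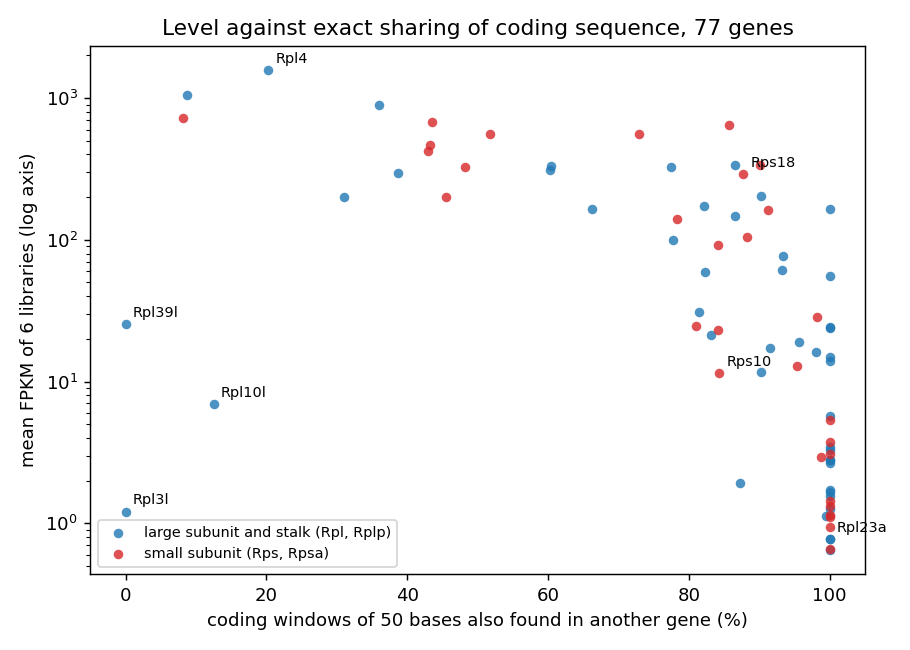
Mean FPKM over 6 libraries (log axis) against the percentage of 50-base coding windows that also occur in another annotated gene, for 77 of the 80 ribosomal protein genes; each point is a gene, blue for the large subunit and stalk, red for the small subunit. Over all 80 genes, 23 of the 29 below 10 FPKM are at 100% shared, while the 29 genes at 100 FPKM or more have a median of 60.4%.

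Some of the pseudogene and joint rows had sizeable values of their own. The joint entry of Rpl34 with Rpl34-ps1 stood at 502 and 576 FPKM in the knockout and Flox/Flox ESC, 313 and 336 FPKM in the 4N- and 4N+ lines from PF, and 447 and 386 FPKM in the 4N- and 4N+ TTF lines. Rplp2-ps1 stood at 95.2 to 180 FPKM beside its parent Rplp2 at 137 to 215 FPKM. Rps4y2, a name RefSeq lists as a synonym of Rps4l on chromosome 6, stood at 45.9 to 120 FPKM beside the X-linked parent Rps4x at 266 to 424 FPKM. A level of a parent gene in these tables is therefore uncertain wherever most of its windows are shared.

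In the comparison of the ESC, which addresses what differs in cells labelled as H2A.X knockout, where H2afx was lower but still detected, ribosomal protein genes were spread to both sides. Of the 73 members measured (at least 1 FPKM in either library), 27 were higher in the knockout and 46 (63%) lower. Over all measured genes 5837 were higher and 6249 (51.7%) lower. The members' median log2 ratio was -0.16, against -0.03 over all 12086 measured genes. It was computed throughout on log2(FPKM + 1), which understates differences of low genes. That direction depended on scaling: the median was 0.05 with all genes centred on the median of those reaching 5 FPKM in both libraries, a shift of 0.20, and 0.21 with both libraries set to the same summed FPKM. At least 1.5-fold higher in the knockout were 9 members (17.8% of all measured genes passed this fold) and at least 1.5-fold lower were 18 (15.9% of all measured genes). After centring these counts were 16 and 8 (26.7% and 8.09% of all measured genes), and with equal sums 20 and 5 (31.8% and 4.90%). No member was 2-fold higher (7.49% of all genes), and 4 were 2-fold lower (3.72% of all genes), namely Rpl26, Rpl30, Rpl5 and Rps6. In the authors' deposited table no member is called significant in this comparison (1.44% of the genes tested there are).

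Among abundant genes the members stood higher than the others, though levels above the floor and coding GC were not matched. Among genes reaching 200 FPKM in both ESC libraries, the 19 members had a median log2 ratio of -0.18 and the 101 other genes one of -0.54. At 50 FPKM or more the medians were -0.23 for 31 members and -0.42 for 784 other genes.

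Of the 49 members at 5 FPKM or more in both libraries, the 5 lowest in the knockout were all of the large subunit. At that level the median was -0.16 for the 29 members of the large subunit and stalk and -0.16 for the 20 of the small subunit. Of members under that level, Rpl26 (-1.47), Rpl5 (-1.12) and the small-subunit Rps6 (-1.01) also lay low. Rpl30, whose yeast counterpart is known to bind its own precursor RNA, stood at 10.7 FPKM in the knockout and 27.3 FPKM in the Flox/Flox ESC, a log2 ratio of -1.28. Rpl23, which also binds Mdm2, stood at 118 and 215 FPKM, a log2 ratio of -0.87. Rpl15 (9.90 and 18.8 FPKM), Rpl27a (15.5 and 28.8 FPKM) and Rpl31 (8.10 and 14.5 FPKM) followed, at log2 ratios of -0.86, -0.85 and -0.77. These 5 were the lowest of the 49 members at 5 FPKM or more in both libraries.

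At the other end stood Rps19, the small-subunit gene most often mutated in Diamond-Blackfan anaemia, at 23.3 FPKM in the knockout and 13.4 FPKM in the Flox/Flox ESC, a log2 ratio of 0.76. Rpl29 (10.4 and 5.95 FPKM, 0.72 on the log2 scale), Rps10 (9.85 and 6.14 FPKM, 0.60), Rpl36 (14.2 and 9.09 FPKM, 0.60) and Rps21 (140 and 92.8 FPKM, 0.59) were the other 4 highest. Rpl35 was chosen after its values were seen, since its Flox/Flox level of 3.64 FPKM lies under 5. At 7.23 FPKM in the knockout its log2 ratio was 0.83. Rps2, of the messenger RNA entry channel, stood at 150 and 106 FPKM in the ESC and at 69.1 to 77.05 FPKM in the iPSC lines, so that the ESC libraries were the higher ones there. For Rpl35 the ESC libraries were the lower ones, with 21.3 to 24.7 FPKM in the iPSC lines.

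The members' ratios went with base composition, though not for every gene. Rpl15 and Rpl27a, among the 5 lowest above, both have 53.6% GC, over the members' median of 52.8%. The share of G and C in the coding sequence, which the choice of members did not use, had a Spearman rho of 0.62 and a Pearson r of 0.59 with the ESC log2 ratio over the 73 measured members. Over the 49 members at 5 FPKM or more in both libraries both were 0.72. The same relation was present over 11516 genes of any kind (rho 0.45, r 0.38), so it is not particular to ribosomal protein genes. All points share the same pair of libraries, and the values describe genes, not replicates.

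Split at the members' median coding GC of 52.8%, the 36 measured members above it had a median log2 ratio of 0.14, with 22 higher and 14 lower in the knockout. The 37 at or below it had a median of -0.50, with 5 higher and 32 lower. Both medians kept their sign under either other scaling, at 0.34 and -0.30 after centring and 0.46 and -0.16 with equal sums. Rpl30 (44.9% GC), Rpl39 (45.1%) and Rps15a (45.9%) lay low, at -1.28, -0.77 and -0.75. Rpl39l, at 43.1% the member poorest in GC, went the other way, at 0.50. Rpl36, at 61.6% the member richest in GC, lay at 0.60. In the 5 GC bins of all measured genes, from poorest to richest, the members' medians were -0.76, -0.54, -0.06, 0.25 and 0.40. The medians of all genes in those bins were -0.41, -0.21, -0.02, 0.21 and 0.34. With each gene set against its own GC bin (20 bins, chosen after seeing the data), the members' median was -0.17. At least 1.5-fold higher were then 4 members and lower 10. The bins used all measured genes (median -0.03), whereas the centring above used genes reaching 5 FPKM in both libraries (median -0.20). The 2 values therefore have different baselines. What part library preparation or the cells had in the relation with GC was not tested.

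**Figure D3:**
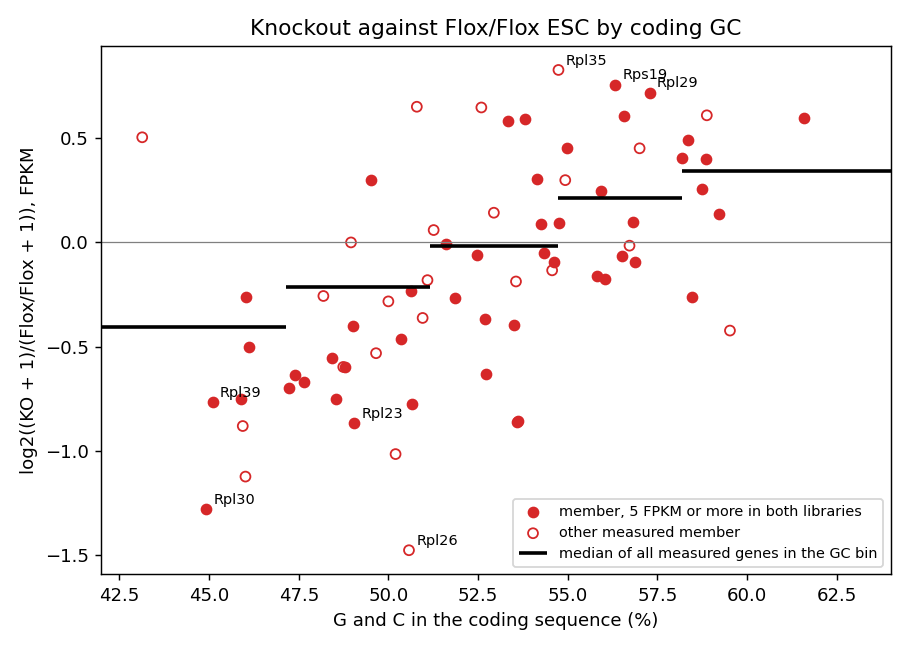
Log2((knockout + 1)/(Flox/Flox + 1)) of FPKM against the percentage of G and C in the coding sequence for the 73 measured ribosomal protein genes; filled points reach 5 FPKM in both libraries, open points do not, and black bars are medians of all measured genes in 5 bins of equal number (the outer bins run past the plot). Members and all genes both climb from left to right, from -0.76 to 0.40 for the members' bin medians.

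Groups of members by role followed the same spread. The stalk, which recruits translation factors, comprises Rplp0, Rplp1, Rplp2 and Rpl12; 3 of the 4 were higher in the knockout, with a median of 0.20 and none 1.5-fold apart. All 4 were higher after centring (median 0.41, 1 at least 1.5-fold) and with equal sums (median 0.55, 2 at least 1.5-fold). Rplp1 stood at 353 FPKM in the knockout and 266 FPKM in the Flox/Flox ESC. Rpl5, Rpl11, Rpl23, Rps7, Rpl26 and Rps27l can bind Mdm2, the inhibitor of p53, the first pair as carriers of 5S RNA. All 6 were lower in the knockout (median -0.70, median coding GC 49.4%); under centring 5 were lower and with equal sums 4. Rpl5 stood at 1.40 FPKM in the knockout and 4.22 FPKM in the Flox/Flox ESC, and Rpl26 was listed at 0 in the knockout and at 1.78 FPKM in the Flox/Flox ESC. Rpl5, Rpl11, Rps7 and Rpl26 were low in both ESC libraries, and every coding window of Rpl5 and Rpl11 is shared.

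The X-linked members Rps4x, Rpl10, Rpl36a and Rpl39 were all lower in the knockout (median -0.63, median coding GC 48.2%); 3 of the 4 were lower under either other scaling. Rpl39 stood at 202 FPKM in the knockout and 344 FPKM in the Flox/Flox ESC, and Rps4x at 266 and 424 FPKM. Rpl36a (0.359 and 1.06 FPKM) and Rpl10 (1.17 and 1.46 FPKM) were low in both, and every coding window of each is shared. Of other genes at 5 FPKM or more, the 223 on the X had a median of -0.27. The median of autosomal genes at that level was -0.20. A list of 15 members mutated in Diamond-Blackfan anaemia, which may not hold every such gene, had a median of -0.19, with 7 higher and 8 lower. The median turned to 0.02 and 0.10 under the other scalings. Rps27a, made as a fusion with ubiquitin, stood at 1.62 FPKM in the knockout and 3.82 FPKM in the Flox/Flox ESC.

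Most other genes of ribosome production were lower in the knockout, and the 3 list medians below kept their sign under both other scalings. Of 29 ribosome biogenesis factors 27 were lower and 15 at least 1.5-fold lower, with a median of -0.59, -0.38 after centring and -0.23 with equal sums. Of all 6901 genes reaching 5 FPKM in both ESC libraries, 1484 were at least 1.5-fold lower. Lower by any amount were 51.7% of all measured genes, 38.2% after centring and 29.8% with equal sums. Nucleolin (Ncl), the abundant nucleolar RNA-binding protein, stood at 145 FPKM in the knockout against 381 FPKM in Flox/Flox cells. The pseudouridine synthase Dkc1 stood at 43.9 and 100.6 FPKM, and the pre-ribosomal factor Heatr1 at 19.97 and 43.8 FPKM. Of 15 genes of RNA polymerase I and its factors, which make ribosomal RNA, 14 were lower (median -0.48), among them Polr1b at 13.7 and 29.2 FPKM. Of 14 other genes whose messenger RNAs are of the TOP class 12 were lower (median -0.51), led by nucleophosmin (Npm1) at 357 and 908 FPKM. Abundant genes of any kind also lay low, as given above, with medians of -0.42 at 50 FPKM and -0.54 at 200 FPKM. The median coding GC of these lists was 52.8%, 51.4% and 49.8%, beside 52.8% for the members and 53.0% for all measured genes.

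Of 12 listed genes of translation control, Myc and the p53 pathway (Trp53, Mdm2 and Cdkn1a), 5 were higher and 7 lower in the knockout (median -0.22). After centring 6 were higher and 6 lower (median -0.01). The 3 with the largest ratios were Mycn, Myc and Cdkn1a. Mycn, which drives ribosome production in many cells, stood at 20.3 FPKM in the knockout and 55.9 FPKM in the Flox/Flox ESC. Myc stood at 3.14 and 7.61 FPKM, and the p53 target Cdkn1a at 50.8 and 19.0 FPKM. Of 74 measured mitochondrial ribosomal protein genes, which form a separate ribosome, 62 were lower with a median of -0.34; with equal sums the median was 0.01.

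In the peritoneal fibroblast pair, which sets a 4N- beside a 4N+ line, the ribosomal protein genes differed less. Of 72 measured members 29 were higher and 43 lower in the 4N- line, with a median log2 ratio of -0.06. Of all 11606 measured genes 3653 were higher and 7908 lower, with a median of -0.13. The members' median was 0.10 after centring and 0.06 with equal sums, so its sign depended on scaling. Members at least 1.5-fold higher numbered 3 (1.98% of all genes), and 1 was 1.5-fold lower (4.85% of all genes). At least 2-fold higher were 2 (0.577% of all genes), and none was 2-fold lower (0.974% of all genes). The 3 higher members were Rpl39l, Rps10 and Rpl26, and the lower one was Rpl30 at 11.1 FPKM in the 4N- and 19.7 FPKM in the 4N+ line (log2 ratio -0.77).

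Part of the pattern in this pair went by chromosome. The median log2 ratio of non-member genes at 5 FPKM or more was -0.17 over the autosomes, but 0.21 for 331 genes of chromosome 17, -0.44 for 634 genes of chromosome 11 and -0.44 for 325 genes of chromosome 6. The 4 members of chromosome 17 at that level were Rps10 (1.31), Rps18 (0.37), Rps2 (0.06) and Rpl36 (-0.06). Their median was 0.22, but they were spread widely to both sides of the chromosome's median. On chromosome 11 Rpl38, known for a role in the translation of Hox messenger RNAs, stood at 13.9 FPKM in the 4N- and 20.7 FPKM in the 4N+ line (log2 ratio -0.54), and Rpl23 at 118 and 164 FPKM (-0.47). On chromosome 6 Rpl32 stood at 897 and 1173 FPKM (-0.39). Set against the other genes of its chromosome, Rpl38 was at -0.10 and Rpl23 at -0.03, while Rps10 remained at 1.099 and Rpl30, of chromosome 15, at -0.60. In the TTF pair the same medians were 0.04 for chromosome 17, 0.02 for chromosome 11 and -0.01 for chromosome 6. The number of copies of these chromosomes in the lines was not tested.

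**Figure D4:**
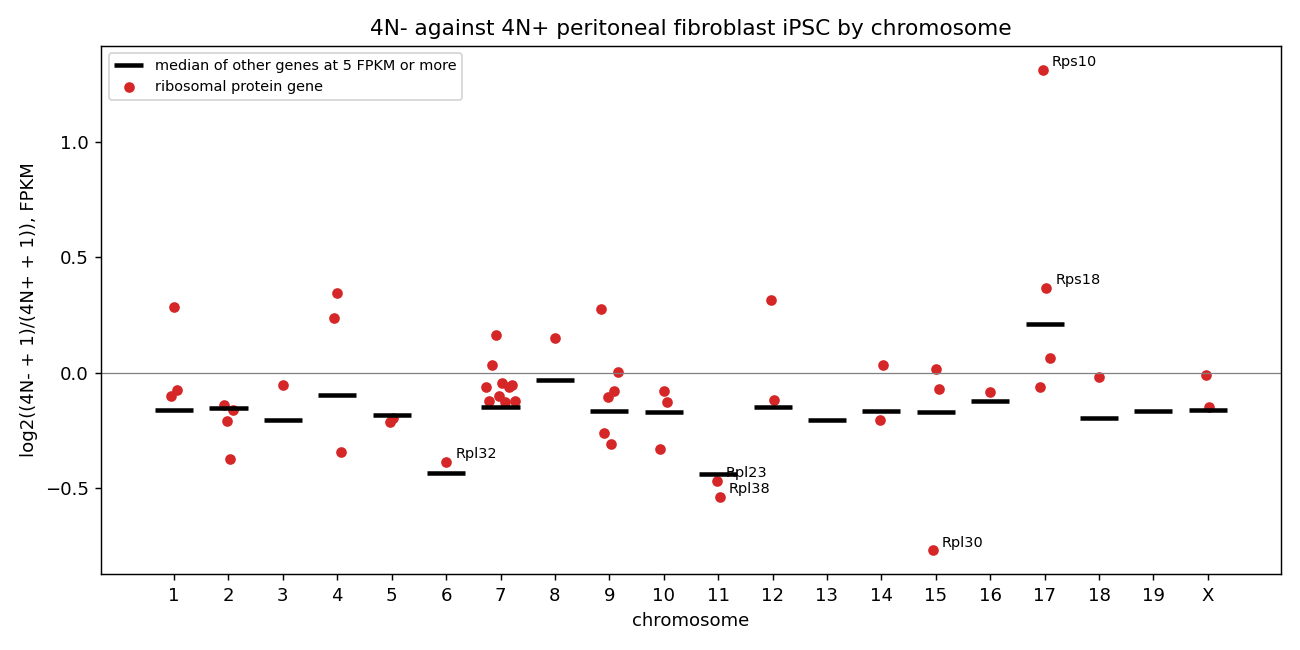
Log2((4N- + 1)/(4N+ + 1)) of FPKM in the peritoneal fibroblast iPSC pair for ribosomal protein genes reaching 5 FPKM in both libraries (points) by chromosome, with the median of the other genes at that level on each chromosome (bars). Chromosome 17 lies above the rest at 0.21 and chromosomes 6 and 11 below at -0.44, and Rpl32, Rpl23 and Rpl38 lie near the bars of their chromosomes, whereas Rps10 and Rpl30 do not.

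In the tail tip fibroblast pair 62 of 78 measured members were higher in the 4N- line and 16 lower, with a median log2 ratio of 0.11. Over all 11354 measured genes 5689 were higher and 5665 lower, with a median of 0.00. Among genes reaching 50 FPKM in both TTF libraries, the medians were 0.11 for 36 members and 0.06 for 1063 other genes. Over 10820 genes of any kind the TTF log2 ratio had a Spearman rho of -0.26 with coding length and 0.21 with coding GC. Over the 78 members these were -0.01 and 0.30. What part length, GC or level had in the members' median was not tested. The members' median was 0.09 after centring and 0.08 with equal sums, with 61 and 57 members higher. The differences were small: 1 member was at least 1.5-fold higher (0.828% of all genes), 3 at least 1.5-fold lower (0.907% of all genes), none 2-fold higher (0.185% of all genes) and 1 2-fold lower (0.564% of all genes; Rpl26). Of the other lists, 25 of 29 biogenesis factors (median 0.11), 10 of 15 genes of RNA polymerase I (median 0.05) and 67 of 74 mitochondrial ribosomal protein genes (median 0.15) were higher in the 4N- line. The 14 other TOP genes were split, with 7 higher and 7 lower (median -0.01). Highest after Rps10 were Rpl37a (48.4 FPKM in the 4N- and 35.5 FPKM in the 4N+ line, log2 ratio 0.44), Rpl41 (219 and 164 FPKM, 0.41), Rpl10l (10.9 and 8.30 FPKM, 0.36) and the stalk protein Rplp1 (384 and 302 FPKM, 0.34). In the PF pair 68.1% of all measured genes lay lower in the 4N- line, and 28 of 29 biogenesis factors were lower (median -0.37, and -0.21 after centring). Whether the pairs differ in this was not tested.

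Rpl3, a large-subunit protein that reaches toward the site of peptide bond formation, was the lowest member at 5 FPKM or more in the TTF pair. It stood at 32.3 and 32.5 FPKM in the knockout and Flox/Flox ESC, 1.40 and 1.32 FPKM in the 4N- and 4N+ lines from PF, and 16.9 and 30.4 FPKM in the 4N- and 4N+ TTF lines. The PF lines were thus far below the other libraries, which lie in other tables, and the 4N- TTF line lay between. In the TTF pair the log2 ratio was -0.81, and the authors' deposited table calls it significant (q = 0.0222, 1 of 43 genes called of 14289 tested, 0.301%). Of its 1160 coding windows 95.7% are shared with other genes, and Rpl3-ps1 differs at the 2 bases counted above.

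Of 71 members measured in both iPSC pairs, 22 were higher in the 4N- line of both and 7 lower in both. Counted pair by pair, 29 of 72 measured members were higher in the PF pair and 62 of 78 in the TTF pair. The matching counts over all genes were not made, so agreement between the pairs was not tested. Rps10 was the only member at least 1.5-fold higher in both, as were 20 of 10975 genes (0.182%). Its protein lies at the messenger RNA entry of the small subunit head, and its mutation is a cause of Diamond-Blackfan anaemia. The gene (chr17:27767374-27772187 on mm9) stood at 19.4 FPKM in the 4N- and 7.20 FPKM in the 4N+ PF line, and at 17.3 FPKM in the 4N- and 8.52 FPKM in the 4N+ TTF line. In the knockout and Flox/Flox ESC it stood at 9.85 and 6.14 FPKM. Both 4N- values lay above both 4N+ values and above both ESC values. The log2 ratios were 1.31 in the PF and 0.94 in the TTF pair.

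The 4 iPSC libraries were also fitted together over 11985 genes with limma, with parental cells as a block, which leaves 1 residual degree of freedom. Adjusted over all genes by the Benjamini-Hochberg method, limma called 14 genes (0.117%) and 1 of the 79 members tested, Rps10, at a log2 difference of 1.13 (SE 0.17, adjusted p = 0.0383, higher in 2 of 2 pairs). At an unadjusted p below 0.05 were 3 members, with Rpl39l and Rpl10l beside Rps10, and 3.72% of all genes. The call of Rps10 was lost with no filter on low values (limma adjusted p = 0.978), with no trend (0.0960) and with no block. Fits with 1 of the 4 libraries left out also had no block. They therefore cannot show whether the call rests on 1 library. The authors' deposited tables do not call Rps10, with q = 0.364 in the PF, 0.0937 in the TTF and 0.969 in the ESC comparison.

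Genes around Rps10 on chromosome 17 were less far apart. Nudt3, its nearest neighbour among those compared at 31.4 kb, had log2 ratios of 0.18 in the PF and 0.00 in the TTF pair, and the other 5 neighbours lay between -0.07 and 0.37 and between -0.19 and 0.32. Of Rps10's 446 coding windows 84.3% are shared, with Rps10-ps2 holding 343 of them. Reads from an expressed copy were not told apart from those of Rps10.

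Rpl39l (chr16:10170321-10175004 on mm9) had the widest range after Rpl3 among members above 1 FPKM in every library. It stood at 4.35 and 2.77 FPKM in the knockout and Flox/Flox ESC, 14.02 and 3.41 FPKM in the 4N- and 4N+ lines from PF, and 66.9 and 62.0 FPKM in the 4N- and 4N+ TTF lines. Both TTF lines were high, the 4N- PF line was intermediate and the others were low. In the PF pair the log2 ratio was 1.77, and the authors' deposited table calls it significant (q = 0.0145, 1 of 75 genes called of 13956 tested, 0.537%). In the TTF pair it was 0.11, and limma over both pairs gave a log2 difference of 0.94 with an adjusted p of 0.822. No coding window of 50 bases of Rpl39l is found in another gene; its untranslated parts were not compared. Its parent Rpl39 stood at 358 and 361 FPKM in the PF pair and 360 and 394 FPKM in the TTF pair.

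The other paralogs varied less. Rpl10l, the autosomal copy of Rpl10 known to serve in male germ cells, stood at 6.31 and 3.796 FPKM in the knockout and Flox/Flox ESC, 6.90 and 5.36 FPKM in the 4N- and 4N+ lines from PF, and 10.9 and 8.30 FPKM in the 4N- and 4N+ TTF lines. It was higher in the first culture of each pair. Rpl10 itself, whose windows are all shared, was listed at 1.03 to 2.46 FPKM, below its copy in every library. Rps27l, a paralog of Rps27 known as a p53 target, stood at 208 to 438 FPKM, while Rps27, with every window shared, stood at 0.649 to 2.05 FPKM. Levels of such parents and copies are per length of transcript, and those of Rpl10 and Rps27 carry the limit of shared sequence.

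**Figure D5:**
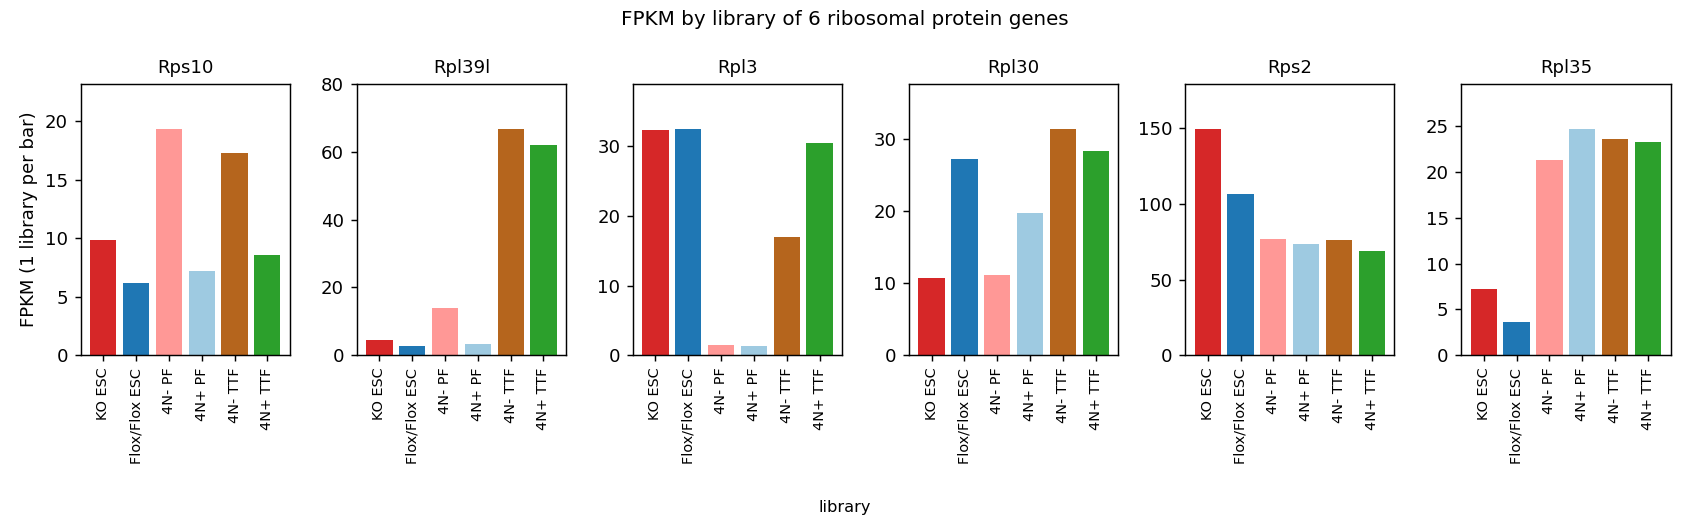
FPKM of Rps10, Rpl39l, Rpl3, Rpl30, Rps2 and Rpl35 in the 6 libraries, 1 bar per library and no error bar because each condition has 1 library; each panel has its own linear axis from 0. Rps10 is highest in both 4N- lines (19.4 and 17.3 FPKM), Rpl39l in both TTF lines (66.9 and 62.0 FPKM), and Rpl3 is near 0 in both PF lines (1.40 and 1.32 FPKM).

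Rpl26, a large-subunit protein that also binds the p53 messenger RNA, was over 1.5-fold apart in both iPSC pairs, in opposite directions. It stood at 3.98 FPKM in the 4N- and 1.99 FPKM in the 4N+ PF line, and at 0.724 FPKM in the 4N- and 2.99 FPKM in the 4N+ TTF line. The values are low, 87.3% of its windows are shared, and 12 pseudogenes are among the genes that share them.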

How the data were processed

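Members and gene lists were chosen with earlier results of these data known. Reads passed through CASAVA and TopHat2 on mm9, per the submitters' processing notes. The program that made the values, its version and its treatment of reads with several alignments are not stated here. The authors deposited 3 tables of 2 libraries each, with values treated as FPKM (not whole, never negative). Per the file headers each gene also has the authors' p-value, its adjusted q-value and a call. The deposited log2 fold change and test statistic (other units) enter no result. Per the files, 87 entries carry several gene names.

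Log2((FPKM + 1)/(FPKM + 1)) was computed within a table (Python 3.11.15, pandas 2.3.3) for genes at 1 FPKM or more in at least 1 library. For 4N- against 4N+, limma 3.58.1 (R 4.3.3, trend, parental cells as block, Benjamini-Hochberg adjusted p below 0.05) was run on all 4 iPSC libraries after being checked on simulated data. The block is the deposited table. The deviation of the 4N- PF line from the 4N- mean correlated with that of the 4N+ PF line from the 4N+ mean at 0.67 over 6736 genes. Nothing says that lines came from separate animals, so p-values measure the spread between these libraries.

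Coding sequences came from GENCODE M21 (GRCm38), matched by symbol or RefSeq synonym for 80 of 80 members. The principal coding transcript gave GC and windows; gene coordinates are those of the files (mm9). RefSeq promoters matched 60 of 80 members. Depth was recovered from 1171 receptor genes, whose values came within 0.05 of whole fragments for 100% of 30 to 114 values per library; the divisor was fitted to those values and is loosely determined.

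Named are, per comparison, the 5 highest and 5 lowest members at 5 FPKM or more in both libraries, members below 1 FPKM, those called, the 5 most and least abundant, members of role lists, and in other lists the 3 largest ratios. Genes drawn by library were chosen after seeing values. Some genes are not reported here by name and are left out of the plots of levels. Alternatives were another pseudocount, filters, 2 scalings, other member lists and left-out libraries.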

Additional observations from a re-analysis of the deposited data

Results flagged for a closer look

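The members' median log2 ratio of 4N- over 4N+ was -0.062 in the PF pair and 0.11 in the TTF pair, opposite in sign. With 1 line of each label per source the difference was not tested, and after centring the PF median was 0.10. Rpl26 had a log2 ratio of 0.74 in the PF pair and -1.21 in the TTF pair, both from levels under 4 FPKM, and this difference was not tested either.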

How the results depend on the processing

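The TTF median kept its sign and moved by less than 0.1 under every alternative run. The ESC median turned to 0.045 when centred and 0.21 with equal sums. The PF median turned to 0.10 when centred, 0.060 with equal sums, 0.079 when set against GC bins and 0.089 against chromosomes, the last pair chosen after seeing the data. Members at least 1.5-fold higher in the ESC numbered 5 with at least 5 FPKM in both libraries, 16 when centred, 20 with equal sums and 4 against GC bins; those lower numbered 8, 5 and 10 under the last 3. With at least 5 FPKM in both libraries 1 member was higher in the PF and 1 lower in the TTF pair. Without small RNA genes the members' shares of FPKM were 4.799% (knockout), 4.69% (Flox/Flox), 5.95% and 5.51% (4N- and 4N+ PF), 6.13% and 5.76% (4N- and 4N+ TTF); without the 10 most abundant other genes they were 4.19% (Flox/Flox), 5.35%, 5.08%, 5.32% and 4.95%. Members with under 50% of windows shared (14 or 15 genes, chosen after seeing the data) had medians of -0.13, -0.07 and 0.11 in the ESC, PF and TTF pairs.

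With no replicate block, and so no pairing by parental cells, limma called 0 members (1 at an unadjusted p below 0.05) and 3 genes in place of 14. It called 0 members with no filter on low values and with no trend, and 2 (Rps10 and Rpl39l, the latter at adjusted p = 0.0117) with at least 5 FPKM in 1 library, where 67 genes were called. Each library left out in turn, which assumes the lone sample of a label varies like the others, gave 0 to 0 members, and 8 to 22 genes. The sign for Rpl39l turned without the 4N+ PF line (adjusted p = 0.999961) and without the 4N- TTF line (adjusted p = 0.999846), with adjusted p from 0.999667 to 0.999993 over the left-out libraries. The causes were not tested. Depth and shared sequence limit the low members most.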
